A study of Mus musculus with 32 samples.

Results

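The comparison described here sets spinal astrocytes 7 weeks after a fracture against spinal astrocytes 3 weeks after it. Its members are 12 of the 32 RNA libraries of the series: the 6 Trap libraries titled 7 weeks and the 6 titled 3 weeks, each time with 3 female and 3 male libraries, and no uninjured library enters the contrast. All mice had the genotype the labels give as Aldhl1l-CreER;Rpl22-HA, in which a tamoxifen-inducible recombinase driven by the Aldh1l1 promoter lets astrocytes carry a tagged ribosomal protein Rpl22. Trap libraries hold RNA pulled down with the tagged ribosomes from homogenised lumbar spinal cord, and Input libraries hold RNA of the whole homogenate. The fracture serves to model complex regional pain syndrome, as the series' design text states. The other 20 libraries are 6 Trap libraries 5 weeks after fracture, 6 from uninjured mice, and 8 Input libraries, 1 for each sex and state. Strain background, age, the tamoxifen schedule and whether each library is a separate animal are not given in the sources used here, and the p-values speak only to the spread among libraries, which may in part be technical.

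Astrocytes take up glutamate and potassium, are joined to each other by gap junctions, and supply neurons with metabolic substrates. After peripheral injury, astrocytes of the dorsal horn are known to become reactive, a state usually followed through the intermediate filament protein Gfap. Because RNA on ribosomes was measured, a level here combines the abundance of a transcript with its loading on ribosomes. As in any bulk sample, fewer cells of a type and less RNA per cell cannot be told apart.

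Levels are given as CPM, read counts brought to a common library size, with libraries scaled by the trimmed mean of M values (TMM). Library totals ranged from 17604714 to 22282829 counts over the 12 libraries, so that 1 CPM stood for 17 to 22.9 counts. All 25 astrocyte markers were higher in Trap than in Input, with a median log2 difference of 3.31, where 8474 of 15380 genes were higher. With DESeq2's size factors in place of TMM the median of all genes in the Trap against Input comparison shifted by -0.133. None of 20 neuron and 18 microglia markers was higher in Trap, and their median log2 differences were -3.90 and -4.00. Oligodendrocyte markers were also lower in Trap (1 of 18 higher, median -2.49). Blood and neutrophil markers went the other way, with 9 of 10 higher in Trap and a median of 2.43, as did Schwann cell markers (7 of 9, median 1.47) and ependymal markers (6 of 7, median 0.83). The recorded sex of each library matched its sex-linked transcripts.

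2 of the 12 libraries stood apart, and neither was singled out by its label. Male 7 weeks replicate 2 had a score of 55.7 on the first principal component of the Trap libraries, where the other 11 lay between -15.6 and 18.3. Its 78 cytosolic ribosomal protein genes summed to 13130 CPM, where the other 7 week libraries had 6827 to 7360 and the 3 week libraries 7751 to 9295. Female 3 weeks replicate 3 had the lowest sum of the 25 astrocyte markers (77400 CPM, where the other 3 week libraries had 94800 to 103000) and the highest sum of neuron markers (1650 CPM, others 797 to 1100). Results are given with all 12 libraries and without male 7 weeks replicate 2. The part of either library in a result was tested only by leaving it out.

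**Figure D1:**
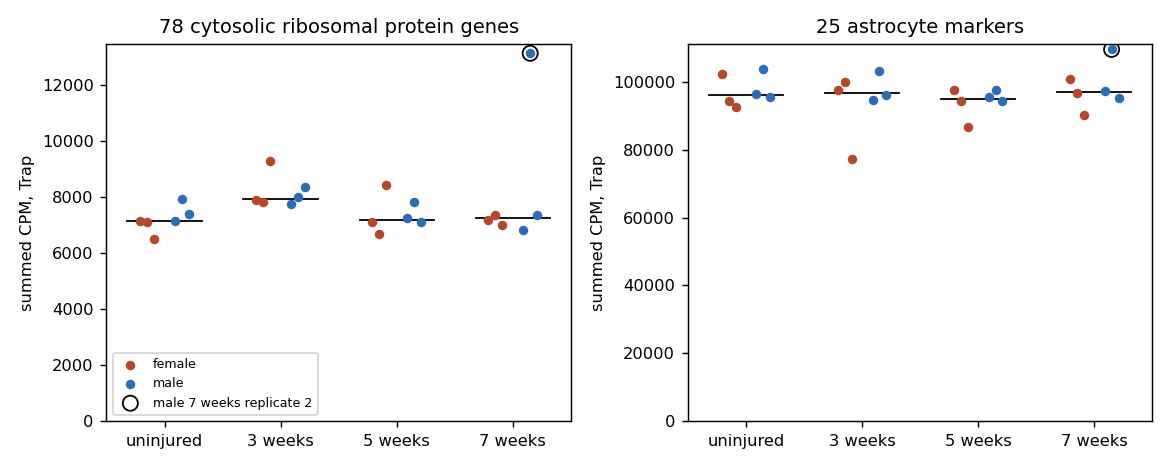
Summed Trap CPM of 78 cytosolic ribosomal protein genes (left) and 25 astrocyte markers (right) in each of 24 Trap libraries, by state on the horizontal axis. Points are libraries, bars are medians of 6, and the circle marks male 7 weeks replicate 2, which has the highest ribosomal protein sum (13130 CPM).

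The imprinted gene Nnat was lower at 7 than at 3 weeks, and Rflnb was higher. They were among 3 genes, 0.0195% of the 15380 tested (0.00650% higher and 0.0130% lower), that passed an adjusted p of 0.05 with all 12 libraries. The test was edgeR's quasi-likelihood test with Benjamini-Hochberg adjustment over all genes, in a fit of the 24 Trap libraries with a mean for each sex and state and no term for replicate number, and the contrast averaged the 7 minus 3 week difference over the sexes. An adjusted p under 0.05 is a call in what follows, and differences are log2 ± standard error. At an unadjusted p under 0.05 there were 1219 genes (7.93%), 596 higher (3.88%) and 623 lower (4.05%) at 7 weeks.

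Nnat, which encodes neuronatin, a small membrane protein expressed from the paternal allele, lies at chr2:157560078-157562522 on the plus strand of GRCm38. It was at 380, 430 and 534 CPM (lowest, median, highest) at 3 weeks and at 282, 329 and 351 CPM at 7 weeks. All 6 libraries at 7 weeks were below all 6 at 3 weeks, with female 3 weeks replicates 1 and 2 the highest at 523 and 534 CPM. Nnat fell by 0.47 ± 0.08 (edgeR, adjusted p = 0.0204), and by 0.51 ± 0.08 without male 7 weeks replicate 2 (adjusted p = 0.00499). In Input, whose libraries may come from the same samples as Trap replicate 1, Nnat fell by 0.55 (edgeR, 2 against 2 libraries, adjusted p = 0.00229).

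Rflnb encodes refilin B, which binds filamin and takes part in bundling actin, and lies at chr11:76019194-76027782 on the minus strand. At 3 weeks it was at 15.1, 19.8 and 22.4 CPM, and at 7 weeks at 25.4, 26.9 and 36.3 CPM. The groups did not overlap, and male 7 weeks replicate 2 was the second highest at 31.9 CPM. Rflnb rose by 0.57 ± 0.10 (edgeR, adjusted p = 0.0204), and by 0.52 ± 0.10 without that library (adjusted p = 0.0244). Its Input difference was 0.06 (adjusted p = 0.922). The 3 calls kept their sign whichever of the 12 libraries was left out, but Rflnb passed the threshold in 6 of these 12 fits and Nnat in 5. No call was left without female 3 weeks replicate 1, male 3 weeks replicate 2 or male 7 weeks replicate 1, and 1 was left without male 3 weeks replicate 1 or female 3 weeks replicate 2. There were 5 calls without male 3 weeks replicate 3, 10 without female 3 weeks replicate 3, and 51 without both that library and male 7 weeks replicate 2.

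**Figure D2:**
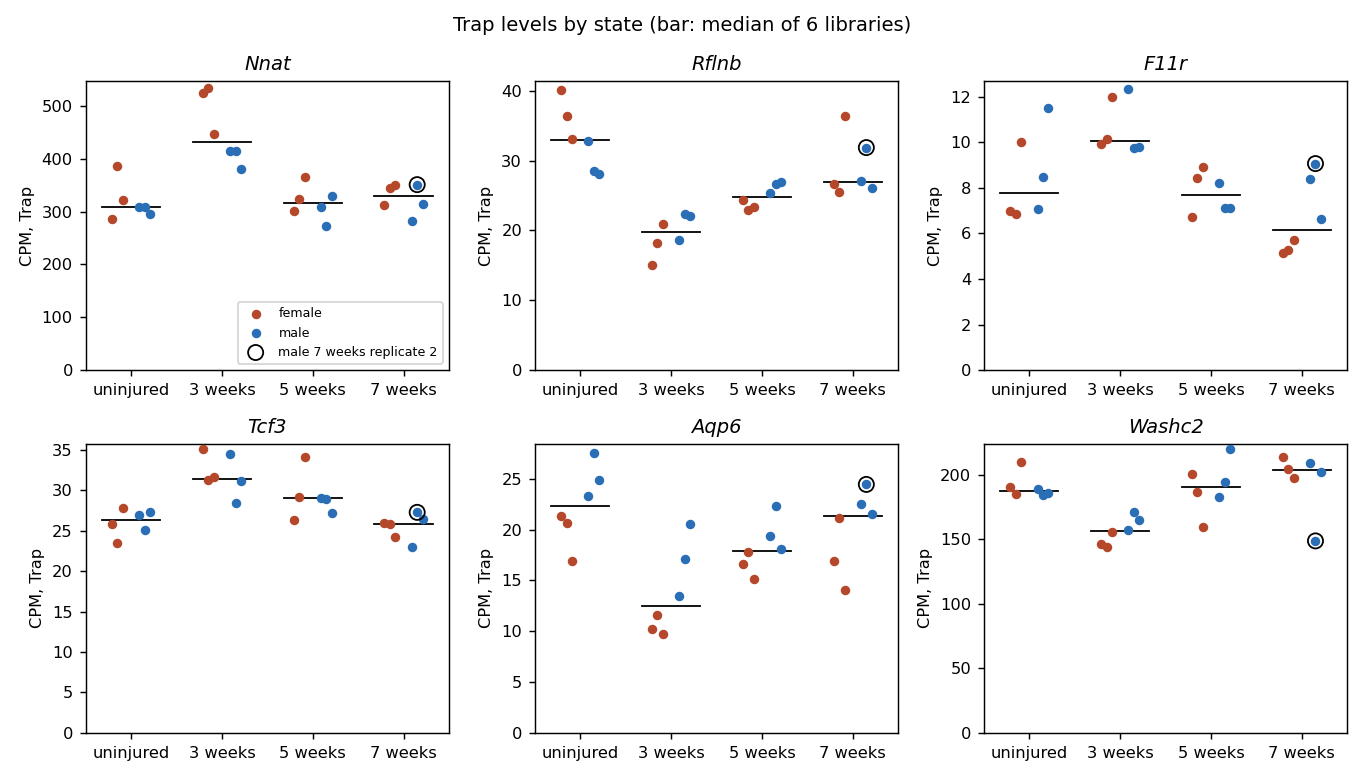
Trap CPM of 6 genes in each of 24 Trap libraries by state, with females and males in different colours, a bar at the median of 6 libraries and a circle around male 7 weeks replicate 2. Nnat, F11r and Tcf3 lie lower and Rflnb higher at 7 than at 3 weeks with no overlap, Aqp6 overlaps, and Washc2 overlaps through the circled library (149 CPM).

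F11r, Aqp6, Amhr2, Bbox1, Bcam and Tlr2 lay just outside the threshold. F11r, which encodes the junctional adhesion molecule JAM-A, was at 9.74, 10.04 and 12.3 CPM at 3 weeks and 5.12, 6.17 and 9.07 CPM at 7 weeks, a difference of -0.70 ± 0.13 (edgeR, adjusted p = 0.0613). The 3 female libraries at 7 weeks were the lowest of all (5.12 to 5.71 CPM). Aqp6, a water and ion channel of intracellular membranes, differed by 0.57 ± 0.11 and Amhr2, the type 2 receptor of anti-Müllerian hormone, by 0.63 ± 0.12 (both adjusted p = 0.0628). Bbox1, the last enzyme of carnitine synthesis, had a difference of 0.40 ± 0.08 (adjusted p = 0.0695), the laminin receptor Bcam 0.31 ± 0.06 (0.0890) and the innate immune receptor Tlr2 0.45 ± 0.09 (0.0969). Of these, the 6 and 6 libraries of F11r, Amhr2, Bbox1, Bcam and Tlr2 did not overlap, and those of Aqp6 did. Over all genes, 74 of 15380 (0.481%) had 6 and 6 libraries that did not overlap.

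Leaving out male 7 weeks replicate 2 raised the number of calls from 3 to 38 of 15678 genes (0.242%), 21 higher (0.134%) and 17 lower (0.108%) at 7 weeks. All 38 had the same sign with the library kept, where 3 of them were called. The 2 fits share every other library and the 38 were chosen on those, so the kept sign is no separate evidence. At an unadjusted p under 0.05 the number went from 1219 to 2200 genes (14.0%). The library itself lay on the 7 week side of the 3 week median for 14 of the 38 genes, where it did so for 40.7% of all genes. It was beyond the 3 week range on the 7 week side for 10 of them, within that range for 12, and beyond it on the other side for 16. With the library left out, the 5 and 6 libraries did not overlap for 29 of the 38, against 376 of all genes (2.44%). The 38 were called on these same libraries, so that share follows in part from the choice of genes. The number of calls also turned on other single libraries of both times. It was 0 when male 7 weeks replicate 1 was left out as well, 5 without male 3 weeks replicate 1, 6 without female 7 weeks replicate 2, 11 without female 7 weeks replicate 1 and 159 without male 7 weeks replicate 3. It was 16 without female 3 weeks replicate 1 or female 7 weeks replicate 3 and 17 without male 3 weeks replicate 2. Where a further male 7 week library was left out, the 1 that remained was assumed to vary like the other groups.

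Washc2, Ckap5, Tns3 and Bcam were among the 21 genes that rose without that library. Washc2, a subunit of the endosomal WASH complex that nucleates actin, was at 144, 156 and 171 CPM at 3 weeks and 197, 205 and 214 CPM in the 5 other libraries at 7 weeks. Male 7 weeks replicate 2 was at 149 CPM, inside the 3 week range. Washc2 rose by 0.39 ± 0.06 (edgeR, adjusted p = 0.00547), but its counts were not whole in any library, which means that reads were shared with similar sequence. Ckap5, which speeds microtubule growth, rose by 0.28 ± 0.05 (adjusted p = 0.0115), from 190 to 210 CPM at 3 weeks to 230 to 260 CPM in the 5 libraries. It was the other gene of the 38 called in Input, where it rose by 0.34 (adjusted p = 0.0314).

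Tns3, a tensin that links integrins to actin, rose by 0.40 ± 0.08 without the library (edgeR, adjusted p = 0.0486), from a median of 557 to 728 CPM. Bcam rose by 0.29 ± 0.06, also with an adjusted p of 0.0486. Sdc2, the heparan sulfate proteoglycan syndecan-2, rose by 0.29 ± 0.05, and Drp2, a dystrophin-related protein that is also a Schwann cell marker, by 0.30 ± 0.06. Pcdhb11, a clustered protocadherin, had the largest rise of the 21, 0.82 ± 0.17 (adjusted p = 0.0352), at 3.54 to 5.17 CPM at 3 weeks and 6.15 to 9.45 CPM in the 5 libraries. Male 7 weeks replicate 2 was lower than either range, at 2.10 CPM.

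Gria4, Adra1a and Abca5 were also among the 21 genes. Gria4, a subunit of AMPA-type glutamate receptors, rose by 0.44 ± 0.09 (edgeR, adjusted p = 0.0284), from a median of 146 to 190 CPM. Adra1a, the alpha-1A adrenergic receptor through which noradrenaline raises calcium in astrocytes, rose by 0.41 ± 0.08 (adjusted p = 0.0352), from 17.1 to 21.4 CPM at 3 weeks to 20.7 to 28.3 CPM. Amhr2 rose by 0.65 ± 0.13, Aqp6 by 0.54 ± 0.11, Tlr2 by 0.46 ± 0.10 and Bbox1 by 0.39 ± 0.08. Abca5, a lipid transporter of the ABC family, rose by 0.57 ± 0.10, and Gramd1b, which moves cholesterol from the plasma membrane to the endoplasmic reticulum, by 0.28 ± 0.06. The other members were Rflnb, Klhdc7a, Arhgef37, Megf9, Alms1 (counts not whole in any library) and the lysine methyltransferase Setd7, with rises between 0.29 and 0.71.

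Among the 17 genes that fell without the library were Nnat and the basic helix-loop-helix factors Tcf3, an E protein with which other factors of the family pair, and Olig1, a factor of the oligodendrocyte lineage that astrocytes also express in part. Tcf3 was at 28.4, 31.4 and 35.1 CPM at 3 weeks and at 22.9, 25.8 and 27.3 CPM at 7 weeks, with no overlap of the 6 and 6 libraries. It fell by 0.36 ± 0.08 without male 7 weeks replicate 2 (edgeR, adjusted p = 0.0491), and with it the difference was -0.33 ± 0.07 (adjusted p = 0.144). Olig1 ran from 750 to 1001 CPM at 3 weeks and from 606 to 786 CPM in the 5 libraries at 7 weeks, and fell by 0.36 ± 0.07 (adjusted p = 0.0310). In Trap Olig1 was 1.92 higher on the log2 scale than in Input, while the other 17 oligodendrocyte markers on its list were not higher there. Between 3 and 7 weeks most of that list went the other way from Olig1. With all libraries 17 of the 18 markers were higher at 7 weeks and 1 was lower (median 0.22). Without male 7 weeks replicate 2, 15 were higher and 3 lower (median 0.15).

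Dimers that hold an E protein are known to bind E-boxes such as CAGCTG, which reads the same on both strands. That motif was searched in the 250 bases before the RefSeq start of a gene (GRCm38.p6), since the E protein gene Tcf3 was among the genes that fell. Of the 38 genes, 26 had a promoter in the RefSeq table used. The motif was present in 4 of the 26 (15.4%), and in 12.8% of the 27025 promoters in the table, a share near the same. The 60 bases around it are shown with the motif in capitals, 5′ to 3′ on the strand of the gene, for 3 genes that rose (Amhr2, chr15:102445156-102445215, plus; Ckap5, chr2:91526639-91526698, plus; Setd7, chr3:51560833-51560892, minus) and 1 that fell (Tmem176a, chr6:48841398-48841457, plus).
Amhr2: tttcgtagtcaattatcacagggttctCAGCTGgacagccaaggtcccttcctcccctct
Ckap5: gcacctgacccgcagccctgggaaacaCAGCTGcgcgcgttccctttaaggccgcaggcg
Setd7: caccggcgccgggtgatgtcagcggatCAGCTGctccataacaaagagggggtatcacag
Tmem176a: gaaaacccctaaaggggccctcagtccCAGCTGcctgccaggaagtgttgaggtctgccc
The first base of the motif lay 184, 96, 42 and 58 bases before the start in this order. Only 1 RefSeq start per gene was used. For Setd7 and Tmem176a that start and the motif lie inside the bounds that GENCODE M21 gives the gene. A match of letters is a description and not a binding site.

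Srsf9, Fbl, Tsen34, Srm and Anp32b were also among the 17 genes that fell. Srsf9, a splicing factor, was at 34.0, 37.8 and 45.8 CPM at 3 weeks and at 26.98 to 32.02 CPM in the 5 libraries at 7 weeks, and fell by 0.46 ± 0.08 (edgeR, adjusted p = 0.0190). In male 7 weeks replicate 2 it was at 59.4 CPM, above every 3 week library. Fbl, the methyltransferase fibrillarin of the nucleolus, fell by 0.39 ± 0.08 and Tsen34, a subunit of the tRNA splicing endonuclease, by 0.36 ± 0.08. Counts of Fbl were not whole in any library and those of Tsen34 in 75.0%, so these are uncertain. Srm, spermidine synthase, fell by 0.40 ± 0.08 and the histone chaperone Anp32b by 0.36 ± 0.07. For Fbl, Tsen34, Srm and Anp32b, too, male 7 weeks replicate 2 was above every 3 week library, as was its ribosomal protein sum.

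Tmem176a, a membrane protein of the CD20-like family, fell by 0.46 ± 0.07 without the library (edgeR, adjusted p = 0.00499), from 115, 124 and 151 CPM at 3 weeks to between 80.5 and 98.8 CPM. Ssbp4 fell by 0.52 ± 0.08 (adjusted p = 0.00673) and F11r by 0.75 ± 0.14 (adjusted p = 0.0244). Cspg5, the brain proteoglycan neuroglycan C, fell by 0.41 ± 0.09, from a median of 199 to 153 CPM. Also lower were S100a16, a calcium-binding protein, Fbxo2, which recognises glycoproteins for degradation, Zfp428 and Naprt, an enzyme of NAD synthesis with counts that were mostly not whole. Their falls were between 0.32 and 0.40.

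**Figure D3:**
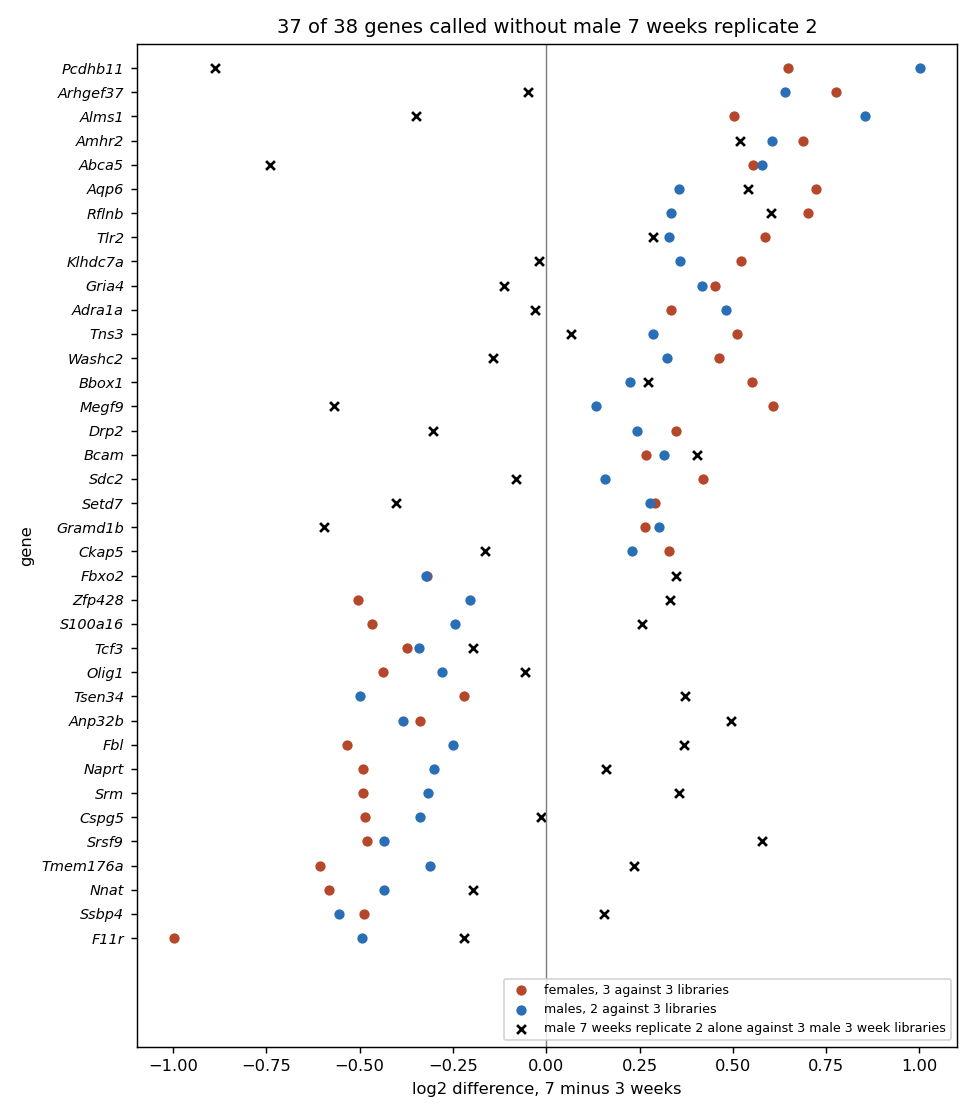
Difference between 7 and 3 weeks (log2, horizontal axis) of 37 of the 38 genes called without male 7 weeks replicate 2, in females, in the other males, and in that library alone against the 3 male 3 week libraries (crosses). Circles of both sexes lie on one side of 0 for each gene, and the crosses of Pcdhb11, Abca5 and Srsf9 among others lie on the opposite side. The genes were called on the libraries behind the circles.

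The column names of the Input libraries begin like those of Trap replicate 1 of their sex and time, so both may come from the same samples and the Input values are not taken as independent. The Input difference had the sign of the Trap difference for 31 of the 38 genes, and for 58.3% of all genes. Of the 38, 34 were called higher in Trap than in Input, against 48.1% of the 15379 genes also tested in the Trap comparison and 43.3% of the 17100 tested between Trap and Input. The exceptions were Abca5, Alms1 and Gramd1b, which were lower in Trap by log2 differences of -1.21, -0.64 and -0.34, and Setd7 (0.09, adjusted p = 0.235).

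Within one sex, no gene passed the threshold with all libraries: 0 of 15380 in females (0%, with 1522 or 9.90% at an unadjusted p under 0.05) and 0 in males (0%, with 601 or 3.91% unadjusted), by edgeR. DESeq2 called 45 in females and 1 in males. In females, with the spread estimated without male 7 weeks replicate 2, there were 18 calls (0.115%), 8 higher (0.0510%) and 10 lower (0.0638%), and in the 2 and 3 male libraries of that fit 0 (0%, with 719 or 4.59% unadjusted). With all the males kept, females had 6 calls without female 3 weeks replicate 1 and 18 without female 3 weeks replicate 3. The test of the difference between the sexes gave 0 calls (0%, with 839 or 5.46% unadjusted) by edgeR, so that test showed no difference of effect between females and males. DESeq2 gave 2 calls, so the outcome turned on the test used. Differences were larger in females for Nnat (-0.58 against -0.35 in males), Rflnb (0.70 against 0.43) and Galnt18, a glycosyltransferase (0.70 against 0.21). None of these passed the test of the difference (edgeR, adjusted p = 0.794 each).

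Genes of reactive astrocytes had lower values at 7 weeks without calls. Gfap was at 10920, 12070 and 15490 CPM at 3 weeks and at 9283, 10500 and 11960 CPM at 7 weeks, overlapping, with a difference of -0.25 ± 0.08 (edgeR, adjusted p = 0.287). Stat3, the transcription factor that drives reactive gene expression, differed by -0.39 ± 0.10 (adjusted p = 0.223), and the protease inhibitor Serpina3n by -0.32 ± 0.14 (adjusted p = 0.552). Of 18 pan-reactive genes 13 were lower and 5 higher, with 0 called and a median of -0.24, and 14 were lower without male 7 weeks replicate 2 (median -0.28). Over all genes tested 7315 were lower and 8065 higher, with a median of 0.01. Lcn2, often named as a reactive marker, stayed under 1 CPM except in 1 library at 3 weeks (4.59 CPM). The median of the pan-reactive genes was -0.42 in females and -0.02 in males, a difference that was not tested. Without male 7 weeks replicate 2 the male median was -0.004.

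Glucocorticoid targets leaned the other way. Tsc22d3, which encodes the glucocorticoid-induced leucine zipper, was at 268, 300 and 328 CPM at 3 weeks and at 363, 443 and 621 CPM at 7 weeks without overlap, a difference of 0.65 ± 0.15 (edgeR, adjusted p = 0.146). Hif3a, Sgk1, Fkbp5 and Zbtb16, further targets of the receptor, differed by 0.52, 0.58, 0.51 and 0.39. Of 20 targets 17 were higher, 0 were called, and the median was 0.26 (0.20 without male 7 weeks replicate 2, with 16 higher). In Input the median of the list was 0.23. Gjb6, the gap junction protein connexin 30, was on this list as well and differed by 0.27 ± 0.08 (adjusted p = 0.250).

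Genes for homeostatic functions of astrocytes were mostly higher, without calls when all libraries were kept. Gja1, the main gap junction protein connexin 43, was at 1930, 2095 and 2421 CPM at 3 weeks and 2492, 2604 and 2707 CPM at 7 weeks, with no overlap (0.30 ± 0.06, edgeR, adjusted p = 0.127). Of 17 genes for gap junctions, potassium and water channels 13 were higher (median 0.06), and 15 without male 7 weeks replicate 2, of which Aqp6 was called. The water channel Aqp4, at a median of 2438 and 2546 CPM, differed by -0.02 ± 0.08. For glutamate and GABA handling 12 of 15 were higher (median 0.11), among them the transporter Slc1a3 (0.19 ± 0.10) and Abat, which breaks down GABA (0.22 ± 0.08, adjusted p = 0.424). The glutamate transporter Slc1a2 differed by 0.08 ± 0.13. In the list for actin, adhesion and basement membrane 18 of 27 were higher with all libraries and 23 without the 1 library, with 3 of these called (Rflnb, Tns3 and Bcam). Of 25 astrocyte markers 19 were higher, with a median of 0.07, and the driver gene Aldh1l1 differed by 0.03 ± 0.09. With all libraries, the medians in females and males were 0.15 and 0.01 for gap junctions, potassium and water channels. For glutamate and GABA handling they were 0.23 and -0.01, for actin, adhesion and basement membrane 0.13 and 0.06, and for astrocyte markers 0.10 and 0.04. Without male 7 weeks replicate 2 the male medians were 0.04, 0.04, 0.16 and -0.01 in the same order of lists. For actin, adhesion and basement membrane the male median was then above the female 0.13. These differences between the sexes were not tested.

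Growth factor and morphogen genes included 25 lower and 11 higher of 36 (median -0.07), and 20 lower without male 7 weeks replicate 2. Fgfrl1, a receptor-like protein that binds fibroblast growth factors, was at 164, 189 and 199 CPM at 3 weeks and 117, 137 and 148 CPM at 7 weeks without overlap (-0.44 ± 0.10, edgeR, adjusted p = 0.127). Wnt5b was at 3.29 to 6.99 CPM and then 2.35 to 3.08 CPM, also without overlap (-0.77 ± 0.17, adjusted p = 0.129). Tnfrsf1a, the type 1 receptor of tumour necrosis factor, was on another list, that of cytokine and NF-kB signalling. It differed by -0.27 ± 0.08 (edgeR, adjusted p = 0.233). On that list 14 of 22 genes were lower and 8 higher, with a median of -0.08.

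The values of translation and respiration genes shifted when male 7 weeks replicate 2 was left out. The direction turned on it for nuclear genes of oxidative phosphorylation and, in males, for ribosomal protein genes. With all libraries 51 of 78 cytosolic ribosomal protein genes were lower and the median was -0.02, and without it 78 of 78 were lower with a median of -0.21, 63 of them at an unadjusted p under 0.05 (7.41% of all genes were lower at that threshold) and 0 called. Rpl13 was at 116, 122 and 144 CPM at 3 weeks, 94.3 CPM at the lowest of 7 weeks and 191 CPM in that library. In males the median of the list went from 0.19 to -0.19, and in females it was -0.22. Nuclear genes of oxidative phosphorylation were higher in 63 of 66 cases with the library (median 0.08) and lower in 53 of 66 without it (median -0.07). For the 13 mitochondrially encoded genes the median went from -0.04 to -0.20, with 9 and then 13 lower. Of 30 genes of fatty acid oxidation 27 were higher with the library and 21 without it, and for the tricarboxylic acid cycle 25 and then 22 of 29. For glycolysis and lactate 19 and then 17 of 24 were higher, among them the glucose transporter Slc2a1 (0.29 ± 0.10, edgeR, adjusted p = 0.389) and Pfkp (0.32 ± 0.10, adjusted p = 0.325).

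**Figure D4:**
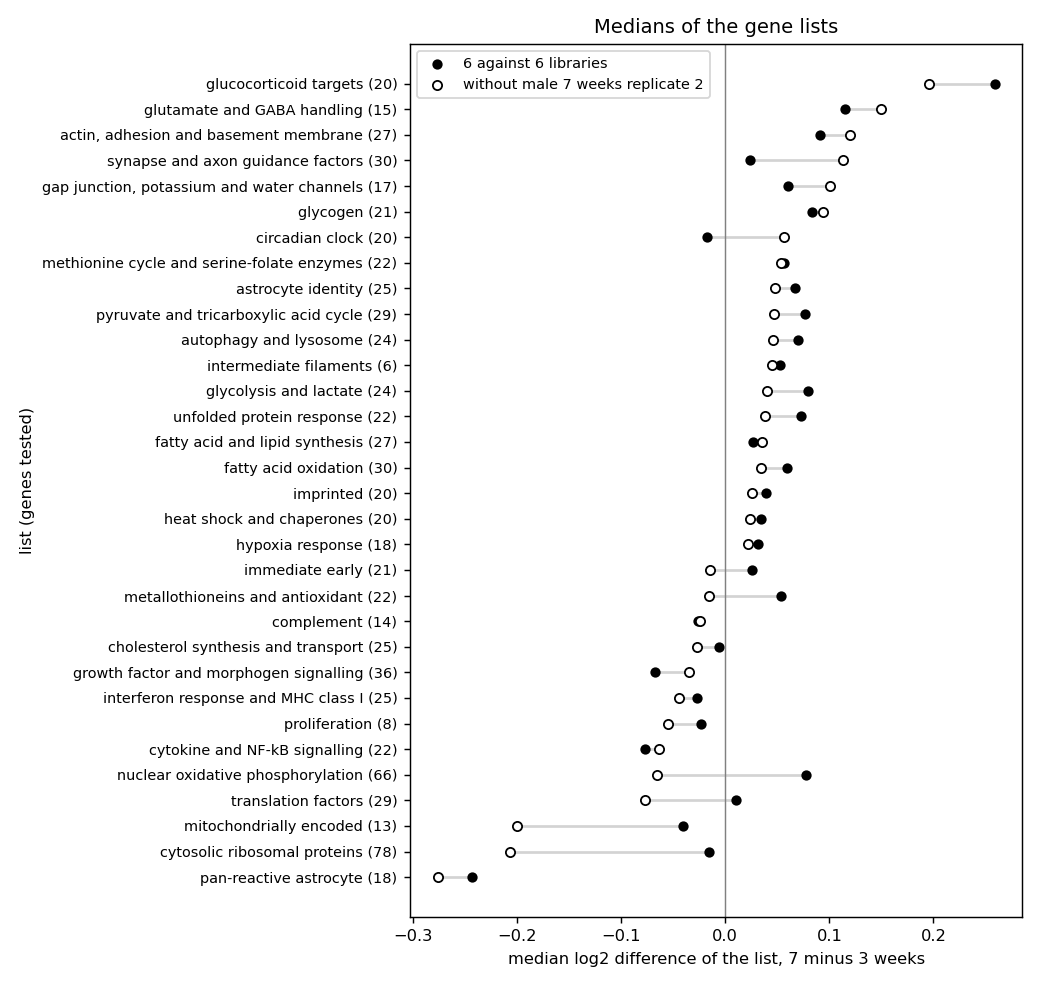
Median log2 difference between 7 and 3 weeks of 32 gene lists, with all libraries (filled) and without male 7 weeks replicate 2 (open), and in brackets the genes tested. The nuclear oxidative phosphorylation median moves across 0, the ribosomal protein and mitochondrially encoded medians move to about -0.2, and the glucocorticoid target and pan-reactive medians keep their sides.

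An earlier analysis of these libraries had listed 16 genes as changed at 3 weeks against uninjured. That comparison shares the 3 week libraries with the present one, and the list was chosen on these samples, so it is no independent evidence of a direction and only values are given. Rflnb was at a median of 32.9 CPM in uninjured mice, 19.8 at 3 weeks, 24.9 at 5 weeks and 26.9 at 7 weeks. Aqp6 was at 22.3, 12.5, 17.9 and 21.3 CPM and Gja1 at 2662, 2095, 2508 and 2604 CPM in the same order. Of the genes higher at 3 weeks, Nnat had medians of 308, 430, 317 and 329 CPM and Fgfrl1 128, 189, 137 and 137 CPM. Smoc1, a secreted matrix protein, was at 25.04, 34.6, 30.1 and 30.7 CPM, and its difference from uninjured at 7 weeks was 0.28 ± 0.10 (edgeR, adjusted p = 1). Svil, the actin-binding supervillin, was at 21.7, 12.2, 20.5 and 18.9 CPM. St14 stayed under 1 CPM in the 12 libraries, so its fitted difference of 1.79 ± 0.40 rests on few counts.

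**Figure D5:**
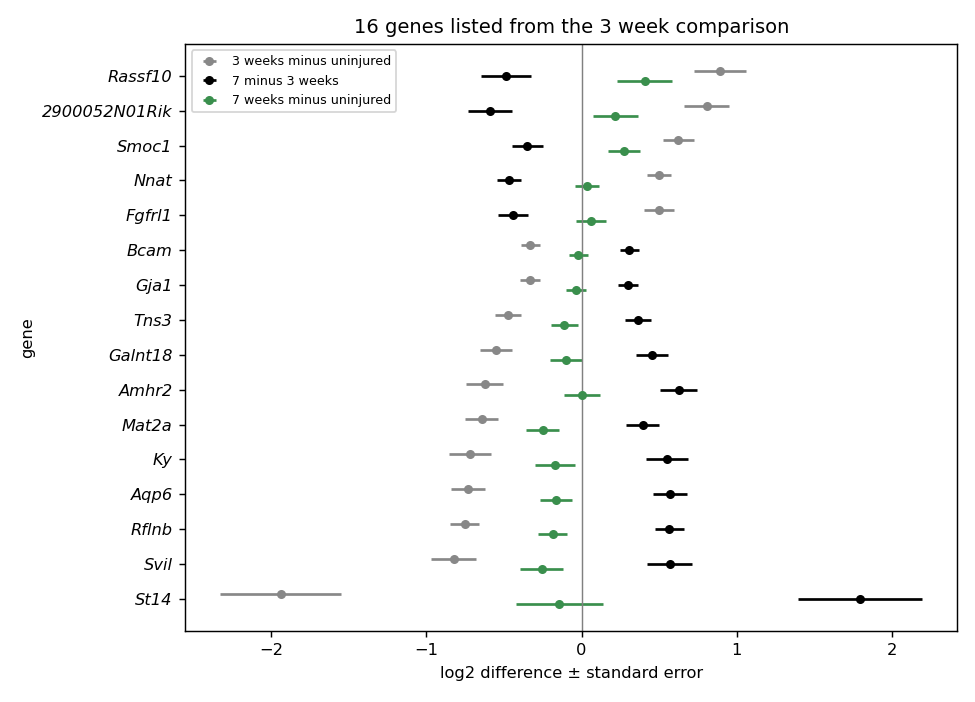
Log2 differences ± standard error of the fit for 16 genes listed from the 3 week comparison: 3 weeks minus uninjured, 7 minus 3 weeks, and 7 weeks minus uninjured. The 3 differences share libraries and are shown side by side as values only.

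Marker sums of other cell types differed between libraries. Sums of 12 Schwann cell markers ran from 833 to 1748 CPM at 3 weeks and 1114 to 2364 CPM at 7 weeks. Sums of 11 blood and neutrophil markers overlapped, at 339 to 1656 CPM at 3 weeks and 445 to 1853 CPM at 7 weeks. Of the 10 tested, 6 were lower and 4 higher at 7 weeks (median -0.22). Among them the neutrophil genes S100a8 and S100a9 differed by -3.00 ± 0.88 and -2.72 ± 0.70 (edgeR, adjusted p = 0.250 and 0.223). These 2 genes were at up to 10.7 and 9.69 CPM in 3 week libraries and under 1 CPM at 7 weeks. Oligodendrocyte marker sums were 3252 to 4739 CPM and then 3637 to 6069 CPM, and endothelial sums 283 to 420 CPM and then 376 to 498 CPM. In none of the marker lists was a gene at 0 in all 12 libraries. The part of these cells in the differences above was not tested.

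In Input, 68 of 16803 genes were called (0.405%), 38 higher (0.226%) and 30 lower (0.179%), from 2 against 2 libraries with 3 residual degrees of freedom. Among the 30 genes called lower were Gal, Pdyn and Atf3. Gal, which encodes galanin, was at 14.1 and 19.7 CPM at 3 weeks and at 5.11 and 6.91 CPM at 7 weeks, and fell by 1.48 (edgeR, adjusted p = 8.42e-05). Pdyn, the precursor of dynorphins, fell by 1.27 (adjusted p = 0.00229), from 48.3 and 51.2 CPM to 22.1 and 18.7 CPM. Atf3, a factor induced in injured neurons, fell by 1.82 (adjusted p = 0.0314), at 1.70 and 4.74 CPM and then 0.393 and 1.40 CPM. In Trap, Gal was at most 1.38 CPM and Pdyn at most 3.95 CPM, and neither was called.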

How the data were processed

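The authors deposited RSEM estimated counts (expected counts) per Ensembl gene for 55938 genes in 32 libraries; per the submitters' processing notes reads passed FastQC and Trim Galore, STAR on GRCm38 and RSEM. Versions and annotation release are not given in the sources used here. Libraries were poly-A selected, per the labels' protocols. Of the values in a library, 6.21% to 7.27% were not whole, and reads shared by similar genes are divided by RSEM. Counts were rounded here. Rows without a symbol were 1.42%. Positions are those of GENCODE M21 where the identifier version matched.

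Tests were 2-sided, by edgeR 4.0.16 (R 4.3.3) after filterByExpr and TMM, with glmQLFit (robust, legacy=FALSE), over 24 Trap libraries with 8 groups of 3 (16 residual degrees of freedom), over 23 without male 7 weeks replicate 2, and over the 8 Input libraries with state and sex as terms. Trap was compared with Input over all 32. Biological coefficient of variation had a median of 0.139. On simulated counts for 15176 genes, this Trap comparison called 71% of 100 genes changed by 0.5 (log2) and 99% of 100 changed by 1, with 7 false calls. The simulated counts held no library that stood apart, and the changed genes were drawn only from those above a CPM cutoff. These shares therefore need not hold for the real libraries, and few calls do not show that few genes changed. DESeq2 1.42.0, its size factors, no filter, only the 12 libraries, replicate blocks and leaving out each library were the alternatives. No 2 replicates agreed within sampling noise.

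Results for some genes are not reported here. Named genes were up to 15 called each way by size in each fit with a mean of at least 1 CPM, genes of smallest p up to 10 each way, up to 4 of each list, and a panel. Hif3a, Sgk1, Fkbp5 and Zbtb16 were chosen after their values were seen, as were the called genes beyond the first 15. The members, lists and rules were chosen with earlier results of these data known.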

Additional observations from a re-analysis of the deposited data

Results flagged for a closer look

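Of 98 groups of 6 libraries examined, 18 had 1 library whose gap to the nearest other was large for the range of the group (above 0.625 of it), where chance gives about 1 in 20. Most were male 7 weeks replicate 2 among the 7 week libraries. It was higher than the other 5 for Anp32b (95.1 CPM, others 48.5 to 55.4), Cspg5 (199, others 143 to 164), Fbl (31.5, others 18.3 to 21.8), Fbxo2 (449, others 258 to 306), Naprt (68.6, others 44.6 to 52.4) and S100a16 (269, others 175 to 206). The same held for Srm (43.9, others 21.6 to 29.5), Srsf9 (59.4, others 26.98 to 32.02) and Tmem176a (140 CPM, others 80.5 to 98.8). It was lower for Ckap5 (176 CPM, others 230 to 260), Gramd1b (55.1, others 87.7 to 104) and Washc2 (149, others 197 to 214). Its summed CPM was higher for microglia markers (81.9, others 57.9 to 64.6) and for cytosolic ribosomal proteins (13100, others 6830 to 7360). These genes were called after this library was left out, so that its standing apart in them is in part a matter of selection.

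At 3 weeks, female replicate 3 stood apart in its sums of astrocyte markers (77400 CPM, others 94800 to 103000), neuron markers (1650, others 797 to 1100) and microglia markers (82.6, others 57.9 to 66.7). Tlr2 in female 3 weeks replicate 2 was at 13.3 CPM, others 11.6 to 11.9.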

How the results depend on the processing

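With all 12 libraries the 3 calls became 9 with no filter on low counts, 57 with DESeq2 as the test, 1 with only the 3 and 7 week libraries, 11 with a replicate block, 45 with a replicate block within sex (added after seeing the data) and 51 without the 2 libraries that stood apart, and 0 to 38 without 1 library. The 38 calls without male 7 weeks replicate 2 became 40 with DESeq2's size factors, 62 with no filter, 290 with DESeq2, 84 and 128 with the 2 blocks, and 0 to 159 without 1 further library. With only the 3 and 7 week libraries, and male 7 weeks replicate 2 left out, there were again 38 calls. Of the reported 38 genes, 22 were among them. The 0 calls in females became 12 with no filter, 45 with DESeq2, 14 with the replicate block, 37 without the 2 libraries that stood apart and 0 to 18 without 1. For males DESeq2 gave 1 and for the difference between the sexes 2, with 0 to 0 without 1 library. The 68 Input calls (38 higher, 30 lower) became 77 with no filter (38 and 39) and 97 with DESeq2 (80 and 17). With DESeq2's size factors there were again 68 Input calls (40 and 28). In deviations from group means, same-numbered female libraries at 3 and 7 weeks correlated at 0.0309, 0.171 and 0.225. Female libraries of different numbers correlated between -0.189 and 0.034. In males the same-numbered values were 0.0818, 0.0124 and -0.0684, and the others lay between -0.105 and 0.0997. The reported fits did not pair libraries by number, and these values do not settle whether they should have. Most column names share a prefix by number within a sex, whose meaning is not given in the sources used here. No called gene reversed, but without male 7 weeks replicate 2 the median of nuclear oxidative phosphorylation genes went from 0.08 to -0.07 and that of ribosomal protein genes in males from 0.19 to -0.19. Counts moved with the test, and the cause was not tested. Genes near 1 CPM rest on 17 to 22.9 counts.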
